A study of Mus musculus with 58 samples.

Results

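The effect of the transgene was compared between 2 brain regions of the same animals. Of the 30 mice on the 58 arrays, 28 had an array of the hippocampus and an array of the frontal cortex, and these 28 mice with their 56 arrays were used. Mice 3 and 7, each with a hippocampus array alone, were left out. For every gene the frontal cortex value of a mouse was taken from its hippocampus value. This value, here called the gap, is positive where a gene is higher in the hippocampus of that mouse. The mean gap of 14 transgenic mice (TG) was then set against the mean gap of 14 wild-type mice (WT), and the result is called the region difference. It equals the TG effect in the hippocampus minus the TG effect in the frontal cortex: a negative value means that TG raised a gene less, or lowered it more, in the hippocampus.

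All mice were 8 months old, of the C57BL/6J background, and either TG from an APP/PS1 model of Alzheimer's disease or WT. TG and WT each had 8 males, with numbers from 38 to 53, and 6 females, with numbers from 1 to 14. Sex and number range therefore cannot be told apart, and both are called the cohort. The tissue was dissected prefrontal cortex, labelled frontal cortex, and hippocampus, each measured on an Affymetrix expression array as a log2 expression value. The promoter and the mutations of the transgenes are not given in the labels. Every difference given here is on the log2 scale, so that 1 unit is a doubling.

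APP and PS1 transgenes make brain cells produce excess amyloid peptide, which gathers into plaques outside cells. Microglia, the resident immune cells of the brain, surround plaques and switch on genes for lipid sensing, phagocytosis and lysosomal digestion, while astrocytes nearby become reactive and fill with the filament protein GFAP. The frontal cortex and the hippocampus differ in their neurons and in their resting glia even in healthy animals, so the same TG level can be reached from different WT levels.

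By markers of hippocampal fields the arrays carried the regional identity in their labels, with 1 exception in degree. The mean of 17 markers of hippocampal fields lay between 5.90 and 7.59 in TG hippocampus and between 7.11 and 7.68 in WT hippocampus, against 5.29 to 5.62 in TG frontal cortex and 5.30 to 5.52 in WT frontal cortex. The lowest hippocampal value, 5.90, was that of TG mouse 4. Its hippocampus array also had the lowest correlation with the mean of its group, 0.983, and the frontal cortex arrays of mouse 4 (0.991) and of WT mouse 51 (0.991) came next. Results are therefore given with all 28 mice and, where it matters, without mouse 4 or without mice 4 and 51. Choroid plexus, which lies against the hippocampus, was present to an uneven degree: the mean of 14 of its markers was above 6 in 5 of 14 TG and in 2 of 14 WT hippocampi. It ranged from 3.64 to 7.55 in TG hippocampus and from 3.58 to 7.30 in WT hippocampus, and it stayed under 3.72 in every frontal cortex array. In dissected tissue, more cells of a type and more RNA per cell cannot be told apart.

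Thy1, a neuronal surface protein whose promoter is often used to drive transgenes in neurons, served as a check of the genotype labels. Its TG values ran from 11.90 over a median of 12.03 to 12.38 in the hippocampus, and its WT values there from 10.61 over 10.93 to 11.02. In the frontal cortex they ran from 11.94 over 12.13 to 12.34 in TG and from 10.55 over 10.94 to 11.42 in WT. TG and WT mice did not overlap in either region. The TG effect on Thy1 was 1.21 (SE 0.05) in the hippocampus and 1.20 (SE 0.07) in the frontal cortex, and the region difference was 0.01 (SE 0.08, 95% interval -0.15 to 0.18, limma adjusted p = 0.949). The source of the added Thy1 signal, endogenous gene or transgene, was not tested. Thy1 thus gave no region difference beyond that interval, while 1431 of 17216 genes, 8.31%, passed the test of the region difference at an adjusted p of 0.05.

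Of these, 838 genes (4.87%) had a negative and 593 (3.44%) a positive region difference. The negative ones were larger: 181 genes were more than 1.5-fold lower and 9 more than 1.5-fold higher in this measure, and the median over all genes was 0.01. With array medians made equal, the split was 754 lower and 811 higher, and without mice 4 and 51 it was 988 lower and 993 higher. For 42 genes (0.244%) every TG gap lay below every WT gap, and no gene had every TG gap above every WT gap. The same mice and arrays gave the effect in each region alone. There, 1070 genes (6.22%) passed in the hippocampus, 672 (3.9%) higher and 398 (2.31%) lower in TG, and 5438 genes (31.6%) passed in the frontal cortex, 2220 (12.9%) higher and 3218 (18.7%) lower. With equal array medians these splits were 543 higher and 1045 lower in the hippocampus and 1683 higher and 5048 lower in the frontal cortex.

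**Figure D1:**
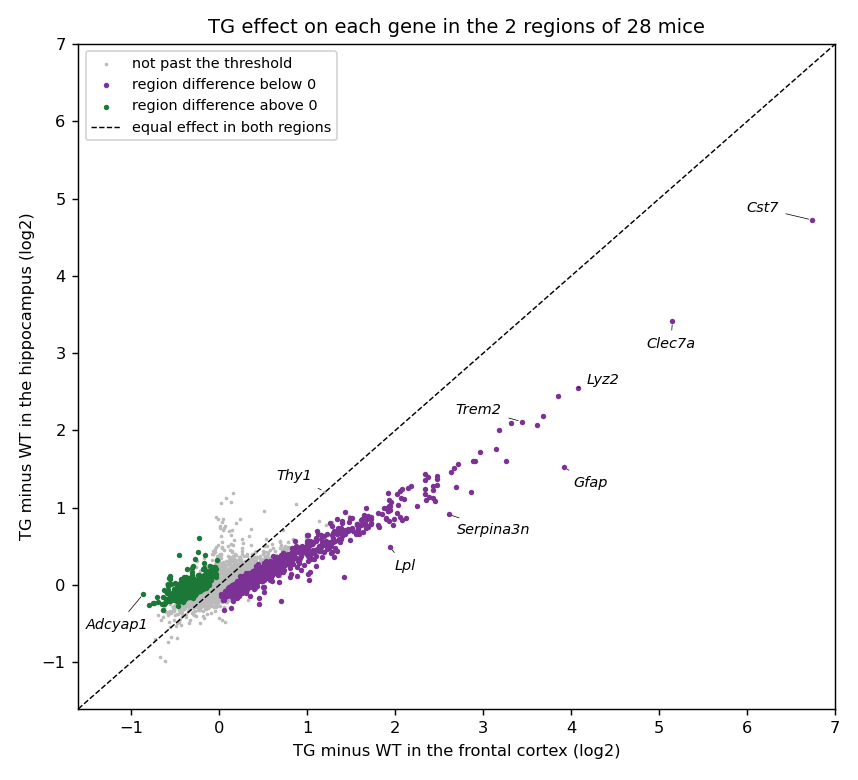
TG effect in the hippocampus against TG effect in the frontal cortex for each gene tested (log2, TG minus WT), with genes past the test of the region difference marked by direction. Most of the widest departures from equality are genes that rose more in the frontal cortex, with Gfap, Cst7 and Clec7a among them; both axes share the same mice.

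The microglial genes that mark cells around plaques rose in both regions and rose more in the frontal cortex. Of 29 measured plaque-associated microglia genes, 26 had a negative region difference (4.87% of all genes did) and none a positive one (3.44%). Their median region difference was -0.89. Their median TG effect was 0.87 in the hippocampus and 1.93 in the frontal cortex. In the hippocampus 27 rose, against 3.9% of all genes, and in the frontal cortex 28 rose, against 12.9%. In WT mice the regions held about the same level of most of these genes: the median gap was -0.86 in TG and -0.0015 in WT.

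Cst7, which encodes cystatin F, an inhibitor of lysosomal cathepsins, had the largest TG effect among the genes named here. Its TG values ran from 5.67 over a median of 8.32 to 10.21 in the hippocampus and from 8.72 over 9.95 to 10.95 in the frontal cortex. In WT they ran from 2.89 over 3.29 to 3.55 in the hippocampus and from 3.02 over 3.22 to 3.62 in the frontal cortex. Every TG array was above every WT array, and within TG the hippocampus was both lower and more spread, with an SD of 1.27 against 0.51 in the frontal cortex. The TG effect was 4.72 (SE 0.32) in the hippocampus and 6.74 (SE 0.14) in the frontal cortex. The gap of Cst7 ran from -3.20 in mouse 44 to -0.04 in mouse 4 among TG mice and from -0.55 to 0.42 among WT mice. Apart from the overlap of a few mice, TG hippocampus lay under TG cortex, and the region difference was -2.02 (SE 0.23, limma adjusted p = 1.9e-07), a 4.04-fold smaller rise in the hippocampus. Without mouse 4 it was -2.16.

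Clec7a, the beta-glucan receptor dectin-1, is another gene that microglia switch on near plaques. Its values in TG ran from 4.50 over 7.18 to 9.14 in the hippocampus and from 7.74 over 8.61 to 9.51 in the frontal cortex. In WT they ran from 3.30 over 3.59 to 3.90 in the hippocampus and from 3.23 over 3.59 to 3.79 in the frontal cortex. All TG gaps (-3.24 to -0.37) lay under all WT gaps (-0.32 to 0.33), with TG mouse 4 and WT mouse 49 close to each other. The region difference was -1.74 (SE 0.21, limma adjusted p = 6.61e-07), from a TG effect of 3.41 in the hippocampus and 5.15 in the frontal cortex. WT values of Cst7, Clec7a and the chemokine gene Ccl3 lay in the lower part of the range of the array in both regions, where arrays tend to understate a fold.

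Trem2, a lipid-sensing receptor of microglia in which some human variants predispose to Alzheimer's disease, followed the same course at a smaller size. Its TG hippocampus ran from 6.72 over 8.09 to 9.62 and its TG frontal cortex from 8.64 over 9.35 to 10.27. Its WT hippocampus ran from 5.59 over 5.90 to 6.11 and its WT frontal cortex from 5.34 over 5.98 to 6.47. The genotypes were separate in each region, and the gaps overlapped only slightly, at -2.44 to -0.65 in TG and -0.88 to 0.60 in WT. The region difference was -1.32 (SE 0.16, limma adjusted p = 7.41e-07), with a TG effect of 2.12 in the hippocampus and 3.44 in the frontal cortex.

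The chemokines, the phagocyte oxidase and the lysosomal glycoprotein among the 10 most negative genes showed the same arrangement. Ccl3, which attracts immune cells, had gaps from -2.79 to -0.31 in TG and from -0.23 to 0.29 in WT, with no overlap and a region difference of -1.65 (SE 0.18). The chemokine Ccl6 had a region difference of -1.53 (SE 0.16), and Cyba, a subunit of the oxidase that phagocytes use to make superoxide, one of -1.65 (SE 0.15). Cd68, a lysosomal glycoprotein of phagocytes, had gaps from -2.19 to -0.634 in TG, just under the WT gaps, which reached 0.39, and a region difference of -1.50 (SE 0.14). Lyz2, the bacteria-digesting lysozyme of phagocytes, had a region difference of -1.52 (SE 0.21). Its gaps overlapped, with WT mouse 42 at -1.42, WT mouse 1 at -0.91 and the TG mice between -2.24 and -0.79. All 5 passed the limma test, with adjusted p-values of 7.28e-06 or less.

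**Figure D2:**
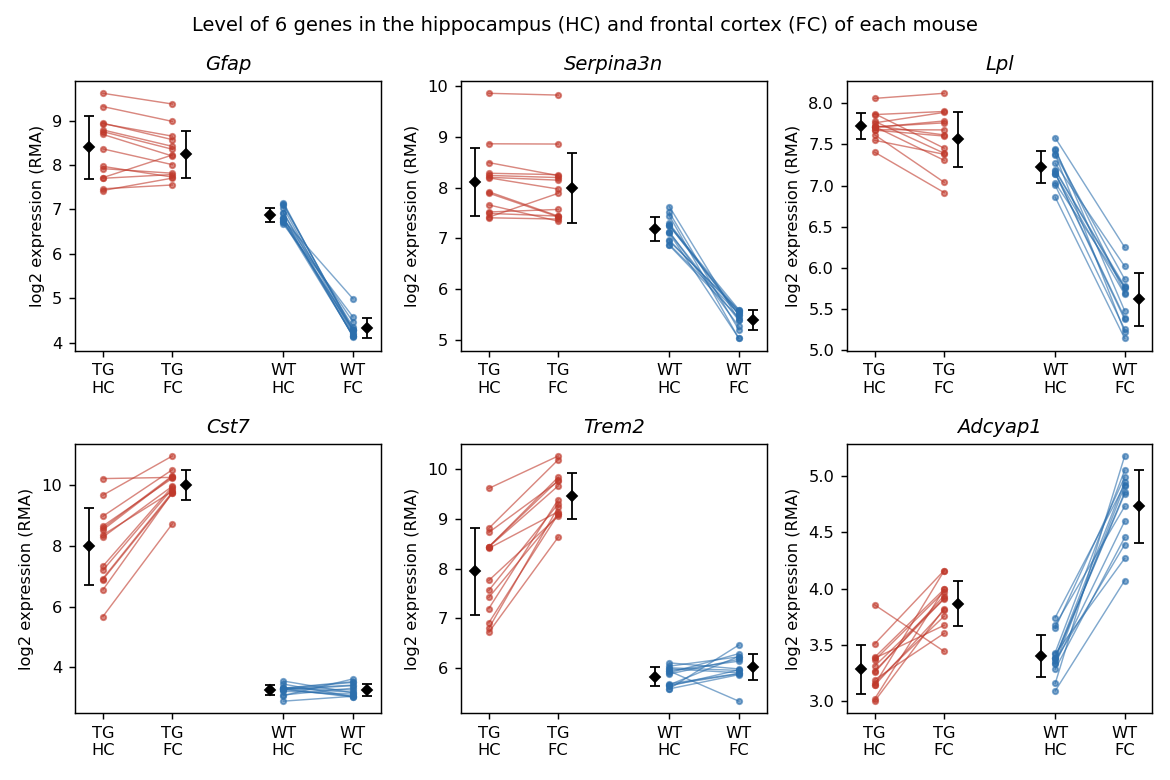
Log2 expression of Gfap, Serpina3n, Lpl, Cst7, Trem2 and Adcyap1 in the hippocampus (HC) and frontal cortex (FC) of each mouse, TG left of WT, with a line joining the 2 arrays of a mouse and black diamonds for the mean ± SD of 14 mice. Gfap, Serpina3n and Lpl lines slope steeply in WT and are near level in TG, Cst7 and Trem2 lines are near level in WT and slope in TG, and Adcyap1 is higher in WT frontal cortex than in the other 3 groups.

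Genes that microglia also express in the healthy brain, known as homeostatic genes, had the same direction. Of 14 measured, 13 were negative and none positive, against 4.87% and 3.44% of all genes. The median of the 14 was -0.82, with a median TG effect of 0.74 in the hippocampus and 1.58 in the frontal cortex. P2ry12, the receptor by which microglia sense ADP, ran from 7.63 over 7.96 to 8.77 in TG hippocampus and from 8.39 over 8.77 to 9.31 in TG frontal cortex, against 7.20 over 7.54 to 7.80 in WT hippocampus and 7.02 over 7.65 to 7.91 in WT frontal cortex. In the frontal cortex TG and WT did not overlap, whereas in the hippocampus the lower TG mice lay within the WT range. Csf1r, the growth factor receptor on which microglia depend, had a region difference of -0.74, and Cx3cr1, the fractalkine receptor, one of -0.88. Since bulk tissue was measured, these values do not separate more microglia from more RNA of each microglial cell.

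Lists of immune pathways that microglia carry had the same direction. Of 12 measured genes for complement and Fc receptors, 10 were negative and none positive (median -0.98), against 4.87% and 3.44% of all genes. C1qb, which encodes a chain of the first complement component, ran from 7.69 over 8.55 to 9.94 in TG hippocampus and from 9.24 over 9.75 to 10.45 in TG frontal cortex, while WT stayed between 6.74 and 7.59 in the hippocampus and between 7.04 and 8.04 in the frontal cortex. Its region difference was -1.11 (SE 0.13). The complement receptor C3ar1 (-0.93, SE 0.08) and the Fc receptor gamma chain Fcer1g (-1.07, SE 0.11) had the smallest p-values of this list, and in both no TG gap reached the WT gaps.

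Of 12 antigen presentation genes, 10 were negative (median -0.84), with the smallest p-values for the immunoproteasome subunit Psmb8 (-0.99, SE 0.13) and the class I heavy chain H2-K1 (-0.96, SE 0.12). Of 13 interferon response genes, 12 were negative (median -0.73), with the smallest p-values for the secreted lectin-binding protein Lgals3bp (-1.39, SE 0.19) and the virus-tethering protein Bst2 (-0.88, SE 0.12). None of the genes in these lists was positive, and over all genes 4.87% were negative and 3.44% positive. Interferon genes rose in 11 of 13 cases in the hippocampus and in 13 of 13 in the frontal cortex, and antigen presentation genes in 8 of 12 in the hippocampus and in 12 of 12 in the frontal cortex. Among all genes, 3.9% rose in the hippocampus and 12.9% in the frontal cortex.

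Lysosomal genes were negative in 19 of 19 cases (median -0.64), against 4.87% of all genes. Laptm5, a lysosomal membrane protein of immune cells, had a region difference of -1.16 (SE 0.11), from 1.18 in the hippocampus and 2.34 in the frontal cortex. Ctss, a microglial cathepsin that digests antigens and matrix, ran from 10.23 over 11.09 to 11.96 in TG hippocampus and from 11.27 over 11.89 to 12.30 in TG frontal cortex. Its WT values ran from 9.36 over 9.74 to 9.94 in the hippocampus and from 9.26 over 9.74 to 9.93 in the frontal cortex, so TG and WT were apart in both regions and WT regions were level. Several of these genes stand in more than 1 list, Cd68 and Ctsz among them, so the lists are not independent counts.

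Some genes, Gfap and Serpina3n of the astrocyte lists among them, gave a different arrangement, because they differed between the regions of WT mice. The median gene of the astrocyte lists differed little there. The median gap of the astrocyte markers was -0.20 in TG and 0.08 in WT. For the reactive astrocyte genes it was -0.09 in TG and 0.01 in WT. Gfap, the intermediate filament of reactive astrocytes, had the most negative region difference of all genes. Its TG values ran from 7.43 over 8.53 to 9.62 in the hippocampus and from 7.55 over 8.21 to 9.37 in the frontal cortex. Its WT values ran from 6.66 over 6.81 to 7.15 in the hippocampus and from 4.13 over 4.28 to 4.99 in the frontal cortex. WT hippocampus thus stood far above WT cortex, and TG mice held about the same level in both. The gap averaged 0.16 ± 0.29 in TG mice and 2.55 ± 0.32 in WT mice (SD, n = 14 each), with TG mice from -0.51 to 0.49 and WT mice from 1.77 to 2.93. The region difference was -2.39 (SE 0.11, limma adjusted p = 3.61e-16), the TG effect being 1.52 (SE 0.17) in the hippocampus and 3.92 (SE 0.14) in the frontal cortex.

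This value is a ratio of folds, and it depended on the scale. When the log2 values were turned back to linear expression values, Gfap averaged 377 in TG and 118 in WT hippocampus, and 323 in TG and 20.3 in WT frontal cortex. The increase was 259 linear units in the hippocampus and 303 in the frontal cortex, and their difference did not pass the test (-44.4 linear units, limma adjusted p = 0.14). Cst7 differed on both scales, with an increase of 345 linear units in the hippocampus and 1070 in the frontal cortex. Serpina3n (162 in the hippocampus and 249 in the frontal cortex) and Lpl (61.1 in the hippocampus and 143 in the frontal cortex) also passed on the linear scale.

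Serpina3n, a secreted protease inhibitor of reactive astrocytes, resembled Gfap. TG mice ran from 7.40 over 8.05 to 9.86 in the hippocampus and from 7.34 over 7.93 to 9.82 in the frontal cortex. WT mice ran from 6.86 over 7.18 to 7.62 in the hippocampus and from 5.02 over 5.46 to 5.59 in the frontal cortex. The WT regions were apart and the TG regions level, and the gap was 0.11 ± 0.24 in TG and 1.80 ± 0.36 in WT (SD, n = 14 each), for a region difference of -1.69 (SE 0.11, limma adjusted p = 2.49e-12).

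Lpl, the lipoprotein lipase that plaque-associated microglia switch on, was the third gene of this shape among the 10 most negative. Its TG hippocampus ran from 7.41 over 7.71 to 8.06 and its TG frontal cortex from 6.92 over 7.61 to 8.12, against 6.86 over 7.19 to 7.58 in WT hippocampus and 5.14 over 5.69 to 6.25 in WT frontal cortex. TG and WT overlapped in the hippocampus and were separate in the frontal cortex. The region difference was -1.44 (SE 0.09). Cd9, a tetraspanin of the same microglial list, lay between the 2 arrangements, with a gap of -0.47 in TG and 0.90 in WT and a region difference of -1.37 (SE 0.10).

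Over the whole array, both arrangements occurred. Of the 838 negative genes, 746 had a mean WT gap within 0.5 of 0, and their median gap was -0.32 in TG and 0.03 in WT. Another 84 were higher in WT hippocampus by more than 0.5, with a median gap of 0.29 in TG and 0.72 in WT. The remaining 8 were higher in WT frontal cortex. Among all 17216 genes, 15821 had a WT gap within 0.5 of 0, 693 were higher in WT hippocampus and 702 in WT frontal cortex by more than 0.5. The 84 genes thus had a smaller contrast between regions in TG than in WT, but the test of the region difference uses the WT gap itself, so these counts are a description.

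Of 14 astrocyte markers 10 were negative and none positive (median -0.27), against 4.87% and 3.44% of all genes. All 14 rose in the frontal cortex (median 0.41), against 12.9% of all genes, and 2 rose in the hippocampus (median 0.11), against 3.9%. Those 2 were Gfap and the water channel Aqp4, whose region difference was -0.52 (SE 0.09). The gap junction protein Gja1 had a TG effect of 0.08 (adjusted p = 0.39) in the hippocampus and 0.44 in the frontal cortex, and glutamine synthetase, Glul, one of -0.03 (adjusted p = 0.80) and 0.21, by limma. Of 19 reactive astrocyte genes 9 were negative and none positive (median -0.20), against 4.87% and 3.44% of all genes. Apart from Gfap and Serpina3n the 9 included Vim, another filament protein (-0.66), and the cytokine receptor Osmr (-0.45). Aside from these lists, Cebpd, an inflammatory transcription factor with non-overlapping gaps, averaged a gap of 1.21 in TG and 2.52 in WT.

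**Figure D3:**
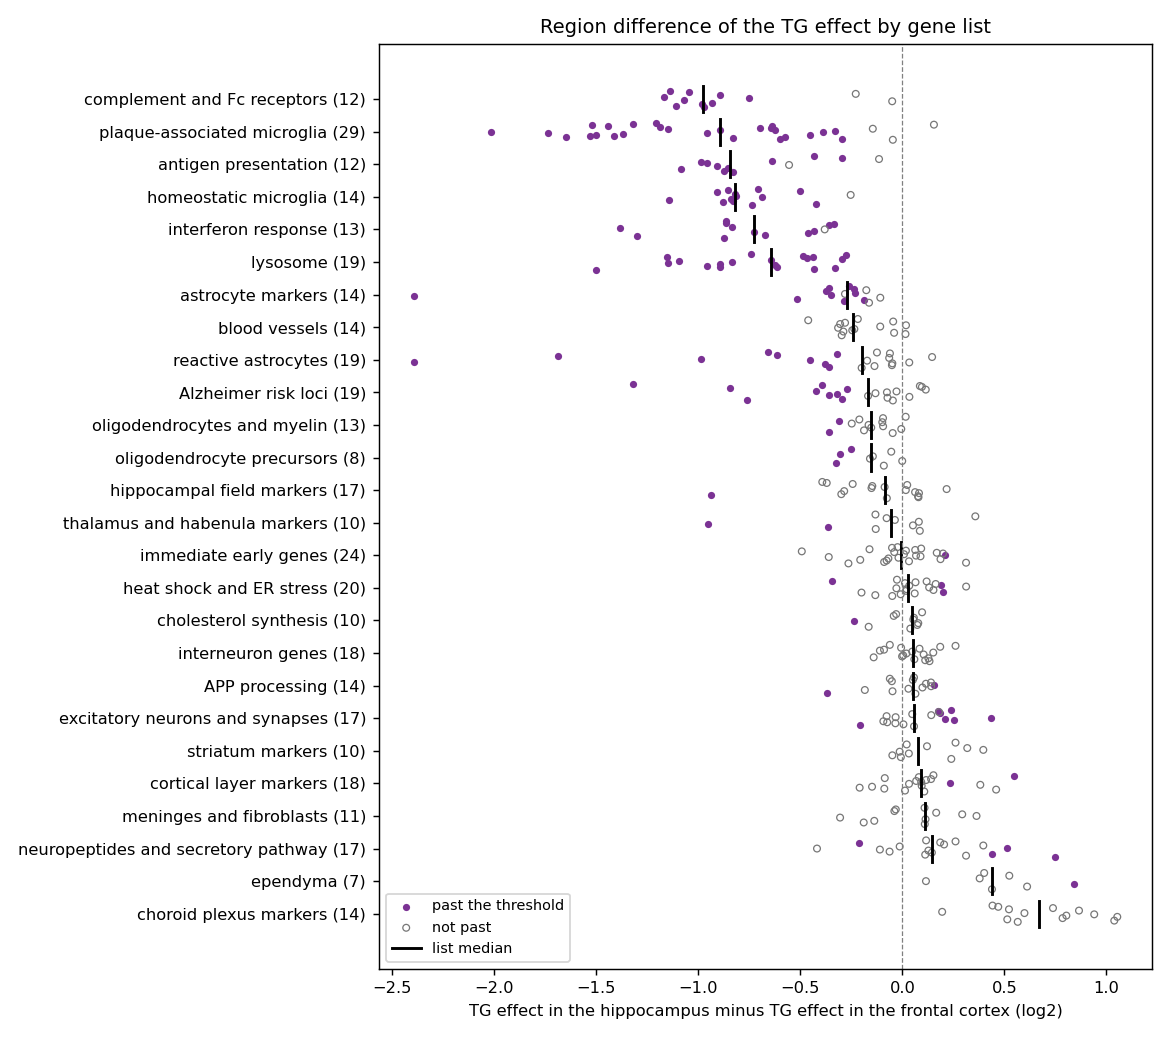
Region difference of the TG effect (log2) for each measured gene of the 26 lists, with the median of each list as a black bar, the number of measured genes in brackets and genes past the adjusted p of 0.05 filled. The microglial, complement, antigen, interferon and lysosome lists lie almost wholly left of 0, the medians of the neuronal lists lie close to 0, and choroid plexus genes lie right of 0 with none past the test.

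Among the genes with a positive region difference, Adcyap1, Chga and Pcsk1 fell in TG frontal cortex and did not pass the test in the hippocampus. Over the 503 positive genes with a WT gap within 0.5 of 0, the median TG effect was -0.05 in the hippocampus and -0.29 in the frontal cortex. Adcyap1, which encodes the neuropeptide PACAP, a trophic factor of neurons, had a median of 3.26 and a highest value of 3.85 in TG hippocampus, and ran from 3.44 over 3.91 to 4.16 in TG frontal cortex. In WT it ran from 3.09 over 3.38 to 3.74 in the hippocampus and from 4.07 over 4.85 to 5.18 in the frontal cortex. Hippocampal values overlapped almost fully, whereas only the lowest WT cortex lay within the TG range. Its region difference was 0.75 (SE 0.12, limma adjusted p = 5.69e-05), with a TG effect of -0.12 (SE 0.07, adjusted p = 0.36) in the hippocampus and -0.86 (SE 0.09) in the frontal cortex. Hippocampal Adcyap1 lies near the low end of the array's scale, where folds are understated.

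Chga, the chromogranin of secretory granules, ran from 7.41 over 7.76 to 8.06 in TG hippocampus and from 7.33 over 7.70 to 8.21 in TG frontal cortex, against 7.65 over 7.85 to 8.15 in WT hippocampus and 7.80 over 8.26 to 8.51 in WT frontal cortex. Here too the cortex carried the change, and the region difference was 0.44 (SE 0.09, limma adjusted p = 0.000854). The granule convertase Pcsk1, which cuts prohormones, was at 0.51. Of 17 neuropeptide and secretory genes, 3 were positive and 1 was negative (median 0.14), against 3.44% and 4.87% of all genes. Without mice 4 and 51, 5 of the 17 were positive. In the hippocampus 8 of them fell (median effect -0.23), against 2.31% of all genes. In the frontal cortex 13 fell (median effect -0.40), against 18.7% of all genes. The negative one was Scg3, a granule sorting protein, at -0.21, which rose by 0.27 in the frontal cortex.

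Mest, an imprinted gene of the hydrolase family, had a median of 6.43 in TG and 6.35 in WT hippocampus, and of 6.74 in TG and 7.16 in WT frontal cortex. Its region difference was 0.68 (SE 0.09, limma adjusted p = 3.18e-06). Slit2, a secreted guidance cue for axons, had a median of 7.48 in TG and 7.32 in WT hippocampus and of 6.59 in TG and 7.14 in WT frontal cortex, with a region difference of 0.66 (SE 0.13). The glycine receptor subunit Glra2 was at 0.59 (SE 0.15) and the troponin subunit Tnnc1 at 0.64 (SE 0.20), a call that ended when any of 18 single mice was left out. In these 4 genes the gaps of TG and WT mice overlapped, and the TG effect passed the test in the frontal cortex, where it was negative, and not in the hippocampus.

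The other 5 of the 10 most positive genes were Vat1l (0.84, SE 0.23), the dynein light chain Dynlrb2 (0.84, SE 0.25), 1700007K13Rik (0.66, SE 0.16), Cdr2 (0.61, SE 0.16) and the serotonin receptor Htr2c (0.58, SE 0.14), which choroid plexus expresses strongly. The TG effect in the frontal cortex was negative and passed the test in each. It was -0.46 for Vat1l, -0.23 for Dynlrb2, -0.24 for 1700007K13Rik, -0.28 for Cdr2 and -0.37 for Htr2c. In the hippocampus it did not pass in any of the 5, at 0.38, 0.61, 0.42, 0.34 and 0.21 in the same order. In each of the 5 genes the highest WT hippocampus was that of mouse 52, which also had the highest choroid plexus mean of WT, 7.30. Dynlrb2, a member of the ependymal list, ran from 3.24 over 5.10 to 5.77 in TG hippocampus and from 3.18 over 3.995 to 5.75 in WT hippocampus. Its call ended when mouse 2, 9, 12, 44, 47 or 48 was left out (adjusted p up to 0.0552 by limma). Its highest TG mouse, number 40, had the highest choroid plexus mean of TG, 7.55. The ependymal mean ran from 3.45 to 5.50 in TG hippocampus and from 3.57 to 5.44 in WT hippocampus, with 3.61 the highest in any frontal cortex array. With the choroid plexus mean as a covariate the region difference was 0.54 for Vat1l, 0.56 for Dynlrb2, 0.50 for 1700007K13Rik, 0.44 for Cdr2 and 0.49 for Htr2c, each smaller than without it. All 5 still passed, with limma adjusted p-values of at most 0.0434. With the ependymal mean as a further covariate, chosen after the data were seen, Dynlrb2, which is part of that mean, was at 0.31 (limma adjusted p = 0.0377). In that fit Vat1l was at 0.58, 1700007K13Rik at 0.44, Cdr2 at 0.46 and Htr2c at 0.58, with limma adjusted p-values of at most 0.0217. For Adcyap1 the region difference was 0.79 and for Mest 0.66 with the choroid plexus mean alone as a covariate.

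Choroid plexus markers themselves had none past the test among 14, with a median region difference of 0.67. Transthyretin, Ttr, the main secretory product of that tissue, ran from 8.22 over 10.83 to 13.58 in TG hippocampus and from 6.58 over 10.52 to 13.56 in WT hippocampus, with a region difference of 0.44 (SE 0.88, 95% interval -1.36 to 2.24). The spread between mice, more than 5 log2 units, exceeded any difference between genotypes. Of the 7 ependymal markers Dynlrb2 alone passed, with a positive value like 3.44% of all genes, and the median was 0.44. With the mean of the hippocampal field markers as a covariate 5 of the 7 passed, all higher, and the median was 0.69. Meningeal and fibroblast genes had none of 11 past the test (median 0.11), and blood vessel genes none of 14 (median -0.24). Of the blood vessel genes 2 were negative with the choroid plexus mean as a covariate, namely the receptors Tek (-0.50, limma adjusted p = 0.0356) and Kdr (-0.35, limma adjusted p = 0.0358). With the hippocampal field mean as a covariate 2 were negative too, and without mice 4 and 51 there was 1.

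Genes of excitatory neurons and synapses were positive in 6 of 17 cases and negative in 1, with a median of 0.06. Over all genes 3.44% were positive and 4.87% negative. In the frontal cortex 10 of the 17 fell, against 18.7% of all genes, and in the hippocampus 1 fell, against 2.31%. Neurod6, a transcription factor of pyramidal neurons, ran from 8.45 over 9.55 to 9.86 in TG and from 9.30 over 9.71 to 9.92 in WT hippocampus, and from 7.01 over 8.00 to 8.49 in TG and from 8.01 over 8.57 to 8.996 in WT frontal cortex. TG mouse 4 was lowest in both regions, and without it the region difference was 0.44, against 0.43 (SE 0.11) with it. Syn1, which tethers synaptic vesicles, was at 0.18, and Syt1, their calcium sensor, at 0.24. The negative gene was the kinase Camk2a, at -0.21 (SE 0.06, limma adjusted p = 0.0219), with a TG effect of -0.0023 in the hippocampus and 0.21 in the frontal cortex. Among 18 markers of cortical layers, Tafa1 (0.55) and Lmo4 (0.23) were positive and none was negative, with a median of 0.09, and Lmo4 did not pass without mouse 45 (limma adjusted p = 0.0506). With the choroid plexus mean as a covariate 4 of the 18 were positive.

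Interneuron genes fell in both regions, 10 of 18 in the hippocampus and 12 of 18 in the frontal cortex. The share of all genes that fell was 2.31% in the hippocampus and 18.7% in the frontal cortex. None of the 18 passed the test of the region difference, with a median of 0.05. With the choroid plexus mean as a covariate 1 passed, Tac1, which encodes the neuropeptide substance P (0.33, limma adjusted p = 0.029). Sst, the somatostatin peptide of a class of interneurons, ran from 9.08 over 9.63 to 10.19 in TG and from 9.64 over 9.97 to 10.21 in WT hippocampus, and from 8.96 over 9.38 to 9.50 in TG and from 9.45 over 9.90 to 10.12 in WT frontal cortex. The TG effect was -0.37 (SE 0.08) in the hippocampus and -0.55 (SE 0.07) in the frontal cortex, both past the test, and the region difference was 0.19 (95% interval -0.01 to 0.38). Neuropeptide Y, Npy, had a TG effect of -0.45 in the hippocampus and -0.34 in the frontal cortex, with an interval of -0.32 to 0.09 for the difference. For the GABA-making enzyme Gad1 the interval was -0.31 to 0.30.

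The immediate early genes, which neurons switch on within minutes of activity, also fell in both regions: 20 of 24 in the hippocampus (median -0.39) and 20 of 24 in the frontal cortex (median -0.46). Among all genes, 2.31% fell in the hippocampus and 18.7% in the frontal cortex. Only 1 of the 24 passed the test of the region difference, against 8.31% of all genes, and the median was -0.01. Arc, which adjusts synaptic receptors after activity, ran from 6.23 over 6.83 to 7.35 in TG and from 6.85 over 7.62 to 8.60 in WT hippocampus, and from 5.76 over 7.94 to 8.75 in TG and from 6.59 over 8.78 to 9.32 in WT frontal cortex. TG and WT overlapped in both regions, and the TG effect was -0.93 in the hippocampus and -0.67 in the frontal cortex. The 95% interval of its region difference was -0.52 to -0.01, and the adjusted p by limma was 0.219.

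Fos, a subunit of the AP-1 transcription factor, had a TG effect of -0.98 in the hippocampus and -0.62 in the frontal cortex, with an interval of -0.80 to 0.08 for the difference. For Egr1, a zinc finger factor, the effects were -0.69 and -0.48 and the interval -0.53 to 0.12. These intervals leave room for a difference of up to 0.80 in Fos, so equality of the regions was not shown. The 1 gene that passed was Homer1, a scaffold of glutamate receptors whose short form is induced by activity, at 0.21 (SE 0.06, limma adjusted p = 0.0226), with effects of -0.17 in the hippocampus and -0.38 in the frontal cortex.

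Whether the App probe set reads mouse App alone or also the transgene was not tested. The App signal fell in TG frontal cortex, as did 18.7% of all genes. Its hippocampal values ran from 11.90 over 12.07 to 12.13 in TG and from 11.996 over 12.05 to 12.15 in WT, and its cortical values from 11.78 over 11.97 to 12.10 in TG and from 11.98 over 12.13 to 12.21 in WT. The genotypes overlapped in both regions, and the region difference was 0.16 (SE 0.04, limma adjusted p = 0.0107), with a TG effect of -0.01 in the hippocampus and -0.17 in the frontal cortex. Of 14 genes that process APP, App was the positive one and Adam17, a sheddase that cuts many surface proteins, the negative one, at -0.37 (SE 0.06). Over all genes 3.44% were positive and 4.87% negative. Among 19 genes at Alzheimer risk loci, 9 were negative and none positive (median -0.17). The most negative was Trem2 (-1.32), and the smallest p-value was that of Plcg2, a phospholipase that signals under Trem2 (-0.84, SE 0.10). Apoe, the lipid carrier made by astrocytes and microglia, was at -0.30, and Clu at -0.32.

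Oligodendrocyte and myelin genes were negative in 2 of 13 cases (Olig1 and, with a call that ended without any of 18 single mice, Cldn11, with a median of -0.15), and precursors of oligodendrocytes in 3 of 8 (median -0.15), with Cspg4, the NG2 proteoglycan, at -0.33 (SE 0.08). Over all genes 4.87% were negative. Among 17 markers of hippocampal fields, only Capn3, a calcium-dependent protease, was negative, at -0.94 (SE 0.11), and in the frontal cortex it rose by 1.30. Without mice 4 and 51, 3 of the 17 were negative and 1 was positive, and with the choroid plexus mean as a covariate 2 were negative, Zbtb20, a transcription factor of hippocampal neurons, being the other (-0.46, limma adjusted p = 0.0165). None of 10 striatal markers passed (median 0.08). Prkcd and Plekhg1 passed among 10 markers of thalamus and habenula, both negative. In the frontal cortex Prkcd rose by 1.02 and Plekhg1 by 0.20, both past the test. In the hippocampus the TG effect was 0.07 for Prkcd and -0.16 for Plekhg1, and neither passed. Prkcd, a protein kinase C, was highest by far in the hippocampus of WT mouse 13, at 8.41 against a WT median of 6.32, and without that mouse its region difference was -0.79, against -0.95 with it. Cholesterol synthesis genes rose in both regions, 6 of 10 in the hippocampus and 9 of 10 in the frontal cortex, against 3.9% and 12.9% of all genes. Of the 10, Lss alone passed the test of the difference, a call that ended without any of 20 single mice. Of 20 heat shock and ER stress genes 1 was negative and 2 were positive, against 4.87% and 3.44% of all genes.

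TG mice with more Gfap, Clec7a or Cst7 in the frontal cortex also had more of it in the hippocampus. Over the 14 TG mice, values of the 2 regions correlated with Pearson's r = 0.93 for Gfap (Spearman's rho = 0.93), 0.86 for Clec7a (rho = 0.85) and 0.84 for Cst7 (rho = 0.90). For these 3 genes the adjusted permutation p of r over the 6 genes tried was at most 0.00032. Mouse 8 was lowest in both regions for Clec7a and Cst7, mouse 11 highest in both for Gfap and mouse 4 highest in both for Clec7a. Without the 2 mice farthest from the median in the frontal cortex r was 0.88 for Gfap, 0.68 for Clec7a and 0.79 for Cst7. Within the 8 males r was 0.83 for Gfap, 0.62 for Clec7a and 0.77 for Cst7, none past the threshold (adjusted permutation p of r = 0.0514, 0.139 and 0.0514; of rho at most 0.0436), and within the 6 females it was 0.98 for Gfap, 0.98 for Clec7a and 0.89 for Cst7.

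For Arc r was 0.63 (rho = 0.56, adjusted permutation p of r = 0.0155) but r no longer passed without mice 4 and 43 (0.39) or without mouse 4 alone (0.51). Within the cohorts r was 0.77 for Arc in males, which do not include mouse 4, and 0.91 in females. Thy1 had r = 0.32 (rho = 0.21, adjusted permutation p of r = 0.304) and Egr1 r = 0.13 (rho = 0.21, adjusted permutation p of r = 0.664). Mouse 4 decided the value of Egr1: without it r was 0.55 (rho = 0.51, adjusted permutation p of r = 0.0748). Without the 2 mice farthest from the median r was -0.09 for Thy1 and 0.38 for Egr1. Within males r was 0.59 for Thy1 and 0.17 for Egr1, and within females it was -0.22 for Thy1 and -0.34 for Egr1.

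**Figure D4:**
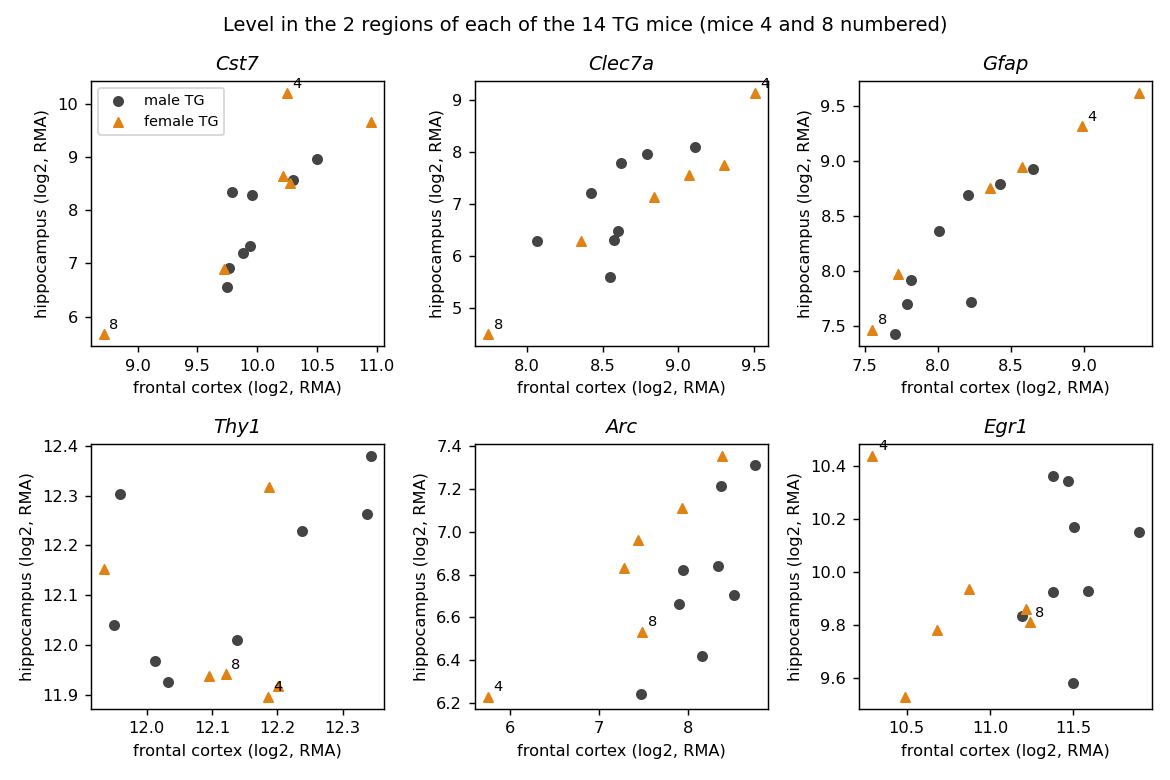
Hippocampus value against frontal cortex value (log2 expression) of each of the 14 TG mice for 6 genes, with circles for males, triangles for females and mice 4 and 8 numbered. Mice with a high frontal cortex value of Gfap, Clec7a or Cst7 also have a high hippocampus value, and mouse 4 lies apart from the other mice for Egr1.

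Whether the region difference itself differed between the cohorts was asked with the interaction of genotype and cohort. By limma no gene passed an adjusted p of 0.05 (0% of 17216), and 1228 genes had an unadjusted p under 0.05, where 860.8 would be expected with no difference anywhere. The smallest p was that of Klhl21, an adaptor of a ubiquitin ligase, with a region difference of 0.36 (SE 0.08) in males and -0.28 (SE 0.10) in females (adjusted p = 0.256). Next came 2810025M15Rik, with 0.30 in males and -0.48 in females, and B3glct, a glucosyltransferase, with -0.30 in males and 0.29 in females. Gfap gave -2.37 (SE 0.15) in males and -2.43 (SE 0.14) in females, and Cst7 gave -2.20 (SE 0.22) in males and -1.77 (SE 0.39) in females, without a cohort difference past the test for either. Fitted alone, the males gave 640 genes and the females 301 past the threshold, with fewer mice in each.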

How the data were processed

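Per the submitters' processing notes, the authors ran RMA in R 3.2.2, and the deposited files hold the resulting log2 expression value of each probe set. The probe set definition used is not stated in the sources at hand. Of 17856 probe sets, 17216 carried a single gene symbol in the platform annotation and were tested, and 640 had none. Array medians lay between 4.74 and 4.86. No detection calls or depths apply to these arrays, so the number of mice limits the precision.

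For each mouse the frontal cortex value was subtracted from the hippocampus value as deposited. The difference was fitted with genotype and cohort in limma 3.58.1 (R 4.3.3, lmFit and eBayes, data.table (version 1.17.8)), and each region alone and the interaction of genotype and cohort were fitted likewise. All p-values are two-sided and were adjusted over the 17216 genes by Benjamini and Hochberg's method, with a threshold of 0.05, and 95% intervals are given. Replicates are separate mice. Correlations across mice used permutation tests (exact for fewer than 10 mice, otherwise 100000 resamples, with a smallest p of 1e-05) in SciPy 1.17.1, adjusted over 6 genes.

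The labels' protocols describe both regions as taken from each mouse, so the mouse numbers pair the arrays. The deviations of the 2 arrays of a mouse from their group means correlated at -0.03 to 0.41 (median 0.11), over 0.1 in 15 of 28 mice. The within-mouse difference had a smaller variance than the sum over both regions for 67.4% of genes.

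The genes named are Thy1, App, the 10 most positive and 10 most negative region differences past the threshold, the 2 members of smallest p of each list and the 3 genes of smallest p in the cohort difference. Other genes were named as list members or examples after their values were seen. The members and the 26 lists, with 371 of 412 genes measured, were chosen with earlier results of these data known, and lists overlap. In simulated data on 17216 genes, normal noise was drawn for each gene independently and 50 genes were changed at each size. A region difference of 0.3 was found for 62% of these genes, one of 0.5 for 92% and one of 1 for 98%. Of unchanged genes 0.047% were called. Genes that vary together and outlying arrays were not simulated, so these shares are not error rates of the test on the real data.

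Alternatives were equal array medians, quantile normalization within each region, only the brighter genes, all probe sets, array weights, a trended robust prior, other treatments of the pairing and the cohort, marker means as covariates, a threshold of 0.01, and leaving out each mouse in turn or mice 4 and 51 together. The linear scale, the covariate of choroid plexus with ependyma, and the correlations without mouse 4 were added after the data were seen. Mice 3 and 7, with 1 array each, were left out.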

Additional observations from a re-analysis of the deposited data

Results flagged for a closer look

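The test of the difference between regions was itself the comparison here, and 1431 genes passed it, 593 of them higher and 838 lower. Among the 640 probe sets without a gene name, which no comparison used, 50 passed the same test. That share was close to the 8.31% of the 17216 genes tested.

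Gaps of single mice stood apart from their group of one genotype and cohort, by Dixon's test, in 24 of 272 tests on 68 named genes, where chance gives about 13.6. In WT male mouse 52, whose hippocampus had the highest choroid plexus mean of WT, the gap was 2.35 for Dynlrb2 (the next mouse 1.17), 4.33 for Calml4 (1.48), 0.92 for Tmem72 (0.19), 1.82 for Igf2 (0.23), 1.17 for Lgals3bp (0.01) and -1.14 for Glra2 (-0.17). In WT male mouse 51 it was 1.77 for Gfap (2.34), 0.32 for Sparc (0.76), 1.35 for Slit2 (0.71) and -2.22 for Penk (-1.40). In TG female mouse 4 it was -0.63 for Cd68 (-1.52), 0.41 for Adcyap1 (-0.41), -0.62 for Camk2a (-0.22) and 0.51 for Zbtb20 (1.54). The thalamic genes Prkcd and Plekhg1 stood at 3.27 (1.48) and 1.91 (1.01) in WT female mouse 13.

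Other mice stood apart in 1 or 2 genes each. TG female mouse 9 was at -0.40 for Glra2 (0.26) and -2.09 for Tek (-0.84), TG female mouse 8 at -0.086 for Gfap (0.24), TG female mouse 10 at 0.43 for Dhcr7 (0.15) and TG male mouse 50 at 0.34 for Thy1 (0.09). WT female mouse 1 was at -0.53 for Cyba (0.29), WT male mouse 48 at 0.54 for Tek (-0.08) and WT male mouse 49 at 0.39 for Cd68 (-0.03).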

How the results depend on the processing

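There were 41 alternatives that kept both cohorts, the log2 scale and the threshold. Of the 51 named genes past the test of the region difference, 39 passed under each of these that included them. Adcyap1, C3ar1, Ccl3, Cspg4, Glra2 and 1700007K13Rik, among the 39, were not in the set of brighter genes and so were not tested there. The other 12 (Cldn11, Dynlrb2, Homer1, Hsph1, Lmo4, Lss, Neurod6, Plekhg1, Ptprz1, Sdf2l1, Tafa1 and Tnnc1) lost it under at least 1. Leaving out a single mouse ended the call for Lss (20 of 28 mice), Cldn11 and Tnnc1 (18 each), Hsph1 (10), Dynlrb2 (6) and Lmo4 (1, mouse 45), with adjusted p-values of at most 0.0868. Without the replicate block, the 2 arrays of a mouse being taken as unpaired, 914 genes passed, 346 of them higher and 568 lower, and with the mouse as a random block 1290 passed. A threshold of 0.01 left 679 genes, 161 higher and 518 lower. Males alone gave 640 genes (201 higher, 439 lower), with 518 (390 higher, 128 lower) for the TG effect in the hippocampus and 3218 (1449 higher, 1769 lower) in the frontal cortex. Females alone gave 301 genes (51 higher, 250 lower), with 83 (69 higher, 14 lower) in the hippocampus and 3267 (1453 higher, 1814 lower) in the frontal cortex; fewer mice entered each of these fits. Without mice 4 and 51, 993 genes were higher. Equal array medians left 1045 genes lower in TG hippocampus and 5048 lower in TG frontal cortex, and moved the median region difference of all genes to 0.03; the cause was not tested. Leaving out each mouse in turn gave 1170 to 1709 genes, 430 (without mouse 45) to 790 (without mouse 4) higher and 735 to 919 lower, and 0 throughout for the cohort difference.

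Thy1, close to 0, was at -0.028 in males alone and at -12.7 linear units, and leaving out each mouse gave -0.034 (without mouse 52) to 0.047, negative without mouse 5 (-0.0040), 11 (-0.014), 12 (-0.0069), 50 (-0.011) or 52. Tmem72 (-0.17), Calml4 (-0.22) and Igf2 (-0.20) turned negative in females alone, and none of the 4 passed the test with all mice. Correlations of the 2 regions no longer passed in males alone for Gfap (r = 0.83), Cst7 (0.77), Clec7a (0.62) and Arc (0.77). That of Arc did not pass without mice 4 and 43 (0.39) or without mouse 4 (0.51). Thy1 turned negative in females alone (-0.22) and without mice 40 and 46 (-0.093), and Egr1 in females alone (-0.34). On the linear scale Gfap was the only 1 of the 10 most negative genes to miss the threshold, and of the 10 most positive Dynlrb2 (limma adjusted p = 0.0966), Tnnc1 (0.0662) and Htr2c (0.102) missed it. So did Neurod6, Tafa1, Prkcd, Plekhg1, Cldn11, Hsph1, Ptprz1 and Sdf2l1.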

Other observations

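Mice 3 and 7 gave a hippocampus array alone and entered no comparison. The hippocampus of mouse 7, labelled TG, had 10.92 for Thy1, 3.21 for Cst7 and 7.27 for Gfap. The hippocampus of mouse 3, labelled WT, had 10.997 for Thy1, 3.30 for Cst7 and 6.70 for Gfap. For Thy1 and Cst7 the library labelled TG of mouse 7 lay within the range of the 14 paired WT hippocampi.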
